A study of Homo sapiens with 9 samples.

Results

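The comparison described here sets melanosome-laden HaCaT keratinocytes treated with glabridin against melanosome-laden HaCaT keratinocytes without it. HaCaT is an immortalised line of human epidermal keratinocytes, melanosomes are the pigment organelles that melanocytes hand to keratinocytes, and glabridin is an isoflavan of licorice root. The series holds 9 mRNA-seq libraries, of which 6 enter the contrast. They are 3 glabridin libraries, from cells given melanosomes and glabridin, and 3 melanosome libraries, from cells given melanosomes alone. The other 3 are from untreated HaCaT cells, which share no treatment with them. They serve in the fit to estimate the spread, and their levels are given where they help to place a value. Libraries were assigned by the sample titles and the treatment labels. The labels name neither dose nor exposure time of glabridin, no vehicle, and no source of the melanosomes. All libraries come from a single cell line, and the labels do not tell whether replicates were grown apart, so a p-value here reflects only how much the sequenced libraries vary, possibly for technical reasons. Of 20263 genes in the deposited table, the 13912 that passed a filter on low counts were tested.

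When unfolded proteins build up in the endoplasmic reticulum (ER), the sensors IRE1, PERK and ATF6 switch on genes for chaperones and for protein degradation. PERK is also an entry to the integrated stress response, in which slowed translation favours the transcription factor ATF4, an activator of genes for amino acid supply and of stress regulators. Sterol supply is sensed in the same membrane, where INSIG proteins hold back the SREBP factors that drive the genes of cholesterol and fatty acid synthesis. In the epidermis, keratinocytes leave the basal layer, change their keratins and build the cornified envelope, and stressed or wounded keratinocytes release EGFR ligands and interleukin-1.

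Glabridin was accompanied by a broad change. Of the 13912 tested genes, 6111 were called at an adjusted p under 0.05 by edgeR's quasi-likelihood test with Benjamini-Hochberg adjustment, which is 43.9%. Of all tested genes, 23.7% were higher with glabridin (3301 genes) and 20.2% lower (2810 genes), and the median log2 change was 0.01. Counts for gene groups below are to be read against these shares. Changes of at least 2-fold were fewer, with 451 genes higher and 665 lower. The test pooled the spread of all 3 groups, which was widest with glabridin and narrowest in untreated cells. In a fit of the 6 compared libraries alone 4970 genes were called. Of the 6078 calls of the main fit that were tested there, 4924 were kept (81.0%). Levels are counts relative to library size (CPM, with sizes scaled by TMM factors), and 3 values in a row are replicates 1, 2 and 3. Library totals ran from 39653425 to 46690787 counts. On this scale 54.0% of calls were higher with glabridin. With library totals alone all log2 changes moved down, to a median of -0.17, and 29% of calls were higher, so small changes hold only relative to the TMM scale. Without glabridin replicate 1 the share was 41.4%. These are measurements on whole cultures, in which fewer cells of a type and less RNA per cell cannot be told apart.

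The ER stress programme held the largest rise among well-measured calls, those whose mean log2 CPM reached 3 or more. HSPA5, which encodes the ER chaperone BiP, stood at 488, 508 and 501 CPM in the melanosome libraries and at 6334, 4814 and 6238 CPM in the glabridin libraries, a log2 change of 3.54 ± 0.10 SE (edgeR adjusted p = 1.12e-08). The lowest glabridin library, replicate 2, was still far above all melanosome libraries. Among 22 ER chaperones and folding enzymes, 20 rose and 1 fell, with a median log2 change of 1.21. The member that fell was ERO1A (-0.32 ± 0.09 SE), an ER oxidase gene that is also a hypoxia target. DNAJB9, a BiP co-chaperone gene, changed by 2.45 ± 0.20 SE, HYOU1, an ER member of the HSP70 superfamily, by 2.11 ± 0.11 SE, and HSP90B1, which encodes GRP94, by 1.38 ± 0.15 SE.

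The regulators of this response changed too. XBP1, the transcription factor whose mRNA IRE1 splices, read 92.7, 94.1 and 92.0 CPM without and 366, 256 and 364 CPM with glabridin (log2 change 1.82 ± 0.12 SE). Replicate 2 was the lowest of the glabridin libraries, and the groups did not overlap. Whether the XBP1 transcripts were spliced cannot be read from counts per gene. ERN1, the gene of IRE1, changed by 1.70 ± 0.18 SE and EIF2AK3, the gene of PERK, by 1.48 ± 0.12 SE. ATF6 changed by 0.37 ± 0.07 SE, and with library totals alone by 0.20 (edgeR adjusted p = 0.0826). Of 11 sensors and factors, 9 rose and none fell. In ER-associated degradation, which returns misfolded proteins to the proteasome, 12 of 18 genes rose and none fell. HERPUD1, a scaffold of the degradation complex, was at 64.8, 69.4 and 69.2 CPM against 653, 497 and 619 CPM (log2 change 3.12 ± 0.10 SE). All glabridin libraries lay far above the melanosome libraries, with replicate 2 again the lowest. SYVN1, the ubiquitin ligase gene of the complex, changed by 1.30 ± 0.11 SE. On unscaled totals 1 gene of the sensors and 1 of the degradation list fell.

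Some promoters of these genes hold a known motif of the ER stress response, and most do not. The ER stress element is spelled CCAAT, any 9 bases, then CCACG, and ERSE-II is ATTGG and CCACG with 1 base between them. Both strands were searched from 250 bases before to 50 bases after the start in the RefSeq promoters (GRCh38.p14) of the 11156 tested genes that had an entry. The ER stress element was found in 14 promoters, 0.125% of all, among them 7 of 21 promoters of ER chaperones (33.3%) and 0 of 14 of ER-associated degradation genes. Of the 14 genes with an ER stress element, 10 were called higher and 1 lower. ERSE-II was found in 11 promoters (0.0986%), among them 2 of 21 and 1 of 14 in those lists, and 4 of the 11 belonged to genes called higher and 1 to a gene called lower. The sequences below are the stretches before the start that hold the element, in capitals, in genes that rose. They are given 5′ to 3′ on the strand of the gene.
HSPA5 (ER stress element, chr9:125241379-125241421, minus strand): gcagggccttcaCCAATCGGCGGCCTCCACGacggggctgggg
CALR (ER stress element on the opposite strand, chr19:12938372-12938414, plus strand): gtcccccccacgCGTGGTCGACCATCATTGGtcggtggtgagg
CRELD2 (ER stress element on the opposite strand, chr22:49918542-49918584, plus strand): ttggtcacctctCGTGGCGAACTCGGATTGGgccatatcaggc
HSP90B1 (ER stress element on each strand, chr12:103930204-103930351, plus strand): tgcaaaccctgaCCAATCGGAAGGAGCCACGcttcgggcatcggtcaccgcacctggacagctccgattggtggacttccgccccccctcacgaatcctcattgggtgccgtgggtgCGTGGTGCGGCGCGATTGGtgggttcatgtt
HERPUD1 (ERSE-II, chr16:56932013-56932047, plus strand): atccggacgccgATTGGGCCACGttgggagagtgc
SDF2L1 (ERSE-II on the opposite strand, chr22:21642102-21642136, plus strand): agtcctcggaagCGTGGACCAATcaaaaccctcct
HYOU1 (ERSE-II at 2 places on the opposite strand, chr11:119057262-119057402, minus strand): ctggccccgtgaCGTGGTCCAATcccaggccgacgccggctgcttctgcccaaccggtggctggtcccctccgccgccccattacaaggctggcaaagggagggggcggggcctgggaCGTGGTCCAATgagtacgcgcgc
A match is a description of these letters and shows no binding.

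**Figure D1:**
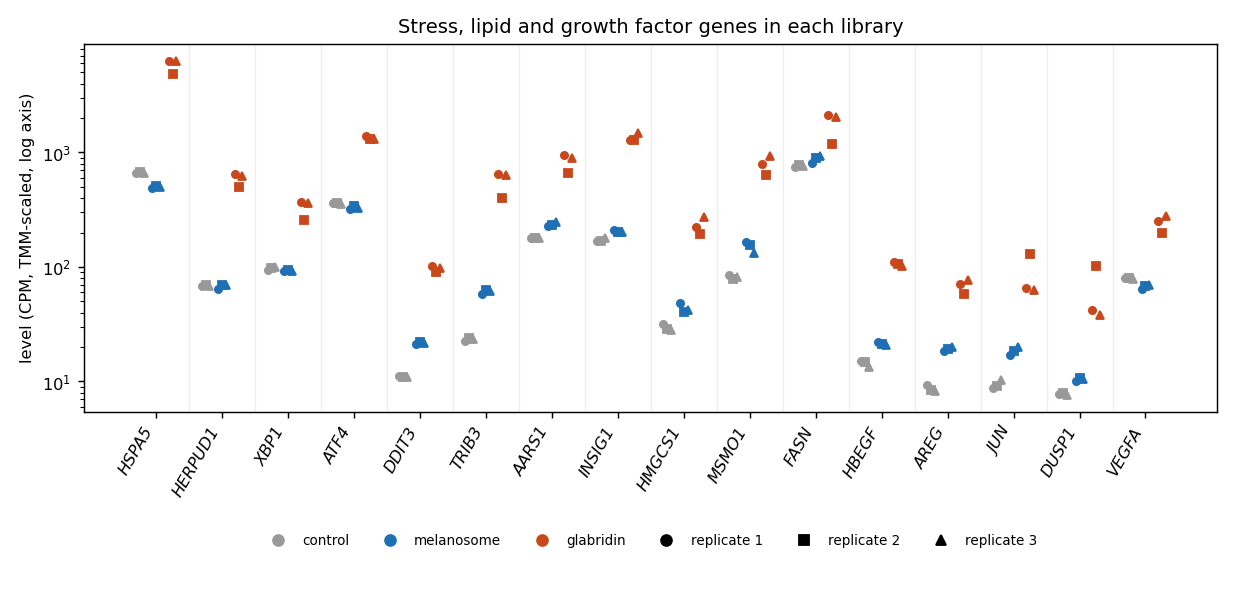
Level of 16 stress, lipid and growth factor genes in each library, in CPM on a log axis. Points are single libraries, coloured by group and shaped by replicate number. HSPA5 lies at 488 to 508 CPM in melanosome libraries and at 4814 to 6334 CPM in glabridin libraries. In JUN and DUSP1 glabridin replicate 2 stands above the other glabridin libraries, and in HSPA5, XBP1, TRIB3, AARS1, FASN and VEGFA below them.

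Genes of the integrated stress response rose alongside. ATF4 itself was at 321, 342 and 330 CPM in the melanosome libraries and at 1403, 1302 and 1318 CPM in the glabridin libraries (log2 change 2.02 ± 0.05 SE). The glabridin libraries were close to each other and separate from the melanosome libraries. Of 21 members, 19 rose and 1 fell, with a median of 1.45. TRIB3, a pseudokinase gene, changed by 3.21 ± 0.16 SE. ATF3, a stress-induced transcription factor gene, went from 17.5, 19.8 and 17.4 to 143, 147 and 140 CPM (2.98 ± 0.08 SE). DDIT3, the gene of the pro-apoptotic factor CHOP, went from 21.1, 22.0 and 21.5 to 102, 90.8 and 98.1 CPM (2.17 ± 0.07 SE). In both genes the glabridin libraries agreed closely and stood clear of the melanosome libraries. PPP1R15A, the gene of the phosphatase subunit GADD34 that restores translation, was at 330, 543 and 301 CPM with glabridin against 69.2, 66.4 and 76.9 CPM without it (2.47 ± 0.19 SE), highest in replicate 2. CHAC1, a glutathione-degrading enzyme, changed by 1.45 ± 0.13 SE, and GDF15, a stress-induced cytokine, by 1.01 ± 0.13 SE. The member that fell was the lipoprotein receptor gene VLDLR (-0.55 ± 0.11 SE).

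Amino acid supply and tRNA charging, both downstream of ATF4, followed the same direction. Of 20 genes of amino acid synthesis and transport, 16 rose and 1 fell, with a median of 0.99. PYCR1, a proline synthesis gene, changed by 1.83 ± 0.08 SE. PSAT1, of serine synthesis, went from 134, 132 and 129 to 405, 256 and 457 CPM (1.5 ± 0.16 SE), with replicate 2 the lowest glabridin library and no overlap. ASNS, the asparagine synthetase gene, changed by 1.03 ± 0.09 SE, and PSPH, the last enzyme of serine synthesis, fell (-0.45 ± 0.08 SE). Without glabridin replicate 2, 3 genes of this list fell. Of 20 cytosolic tRNA synthetases, 15 rose and none fell, with a median of 0.66. AARS1, which charges alanine tRNA, was at 228, 234 and 246 CPM without and at 951, 659 and 902 CPM with glabridin (1.83 ± 0.11 SE). Replicate 2 was the lowest here as well. WARS1, for tryptophan, changed by 1.56 ± 0.10 SE and GARS1, for glycine, by 1.40 ± 0.12 SE. With RLE scaling 2 synthetases fell, and without glabridin replicate 2 or 3, 1 fell.

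The composite element of ATF4 and CEBP factors, spelled TGATGNAA and searched on both strands, was found in 193 of the 11156 promoters (1.73%). It was in 6 of 16 tRNA synthetase promoters (37.5%), namely AARS1, CARS1, IARS1, MARS1, NARS1 and TARS1, which all were called higher. The call of NARS1 (0.52 ± 0.14 SE) was lost without glabridin replicate 1 (0.44) or melanosome replicate 3 (0.47). It was in 3 of 18 promoters of the integrated stress response list (16.7%) and in 3 of 14 of the amino acid list (21.4%). Among genes higher by at least 2-fold, 4.84% of promoters held it, and among genes lower by at least 2-fold 2.21%. The stretches that hold it, with the element in capitals, are shown for genes that rose.
ATF3 (chr1:212565204-212565235, plus strand): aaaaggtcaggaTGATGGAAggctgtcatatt
ASNS (chr7:97872457-97872488, minus strand): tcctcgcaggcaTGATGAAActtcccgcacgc
CHAC1 (element on the opposite strand, chr15:40953250-40953281, plus strand): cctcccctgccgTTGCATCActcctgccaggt
AARS1 (element on the opposite strand, chr16:70289674-70289705, minus strand): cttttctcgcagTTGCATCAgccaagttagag
IARS1 (element on the opposite strand, chr9:92293698-92293722, minus strand): attttcagcgcgTTGCATCAcctcc
A sterol element spelled TCACNCCAC was in 1.12% of all promoters and in 1 of 20 promoters of cholesterol genes, and an antioxidant element spelled TGACNNNGC was in 14.8% of all promoters and in 5 of 20 promoters of NRF2 targets (25.0%).

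Other stress pathways were mixed. Of 17 cytosolic heat shock chaperones, 6 rose and 3 fell, with a median of 0.06. HSPA1A, the inducible HSP70 gene, was at 146, 158 and 168 CPM without and at 138, 254 and 116 CPM with glabridin (log2 change 0.11 ± 0.23 SE, edgeR adjusted p = 0.736). The groups overlapped, with replicate 2 above and the other glabridin libraries below the melanosome libraries, and without replicate 2 the gene was lower (-0.31, edgeR adjusted p = 0.0058). Reads may be shared with its near-identical copy HSPA1B. DNAJB1, an HSP70 co-chaperone gene, changed by 1.13 ± 0.14 SE and HSP90AA1, a cytosolic HSP90 gene, by -0.67 ± 0.10 SE. Without glabridin replicate 2, 5 heat shock genes fell.

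NRF2, the factor of the antioxidant response, had 21 of 28 listed genes higher and 3 lower, with a median of 0.49. FTL, the ferritin light chain gene, whose pseudogenes can share reads, went from 575, 603 and 606 to 1631, 1678 and 1445 CPM (1.41 ± 0.06 SE). NQO1, a quinone reductase gene, went from 486, 480 and 469 to 790, 1171 and 657 CPM (0.87 ± 0.16 SE). In both genes all glabridin libraries were above all melanosome libraries, and NQO1 was highest in replicate 2. GCLM, of glutathione synthesis, changed by 0.74 ± 0.12 SE, and TXNRD1, thioredoxin reductase, by 0.45 ± 0.14 SE with overlapping libraries, a call lost without glabridin replicate 1 (0.30) or any single melanosome replicate (0.44 to 0.45). GPX2, a glutathione peroxidase gene, changed by -0.93 ± 0.07 SE. HMOX1, the haem oxygenase gene, was at 29, 29.9 and 31.4 CPM without and 28.8, 36.7 and 26.5 CPM with glabridin, and the groups overlapped.

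Among 22 p53 targets, 9 rose and 4 fell (median 0.20), close to the shares over all genes for falls. PLK3, a stress kinase gene, changed by 1.92 ± 0.12 SE, CDKN1A, the gene of the cell cycle inhibitor p21, by 1.63 ± 0.06 SE and GADD45A by 1.31 ± 0.08 SE. TP53INP1, a p53-induced gene, changed by -0.97 ± 0.21 SE. Without melanosome replicate 3, 2 targets fell. Of 22 genes of the BCL2 family and death receptors, 10 rose and 5 fell. The BH3-only genes BBC3 (PUMA, 1.84 ± 0.09 SE) and PMAIP1 (NOXA, 1.57 ± 0.16 SE) led the rises, and the anti-apoptotic gene BCL2L1 changed by 0.34 ± 0.08 SE, a call lost without glabridin replicate 1 (0.27). Of these 22 genes 4 rose with library totals alone, and 4 without glabridin replicate 1. The count that fell was 3 without glabridin replicate 3, 1 or 2 with a melanosome replicate left out, and 2 or 3 with a control replicate left out. Of 7 metallothionein and zinc genes, 4 rose and 2 fell, led by the zinc exporter SLC30A1 (1.22 ± 0.15 SE). Without melanosome replicate 1 or glabridin replicate 1, 2 of the 7 rose, and without melanosome replicate 1, 1 fell.

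In the lipid programme, genes of sterol synthesis rose. Of 27 genes of cholesterol synthesis and SREBP2, 21 rose and none fell, with a median of 0.83. INSIG1, which retains SREBP in the ER, was at 211, 203 and 201 CPM without and 1274, 1284 and 1473 CPM with glabridin (log2 change 2.71 ± 0.07 SE). HMGCS1, an early enzyme of the pathway, went from 48.9, 40.4 and 42.5 to 224, 193 and 272 CPM (2.39 ± 0.12 SE). Neither gene's libraries overlapped between the groups. Without glabridin replicate 1, without glabridin replicate 2 and with RLE scaling, 1 member fell.

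Fatty acid synthesis rose in part. Of 24 genes, 14 rose and 2 fell, with a median of 0.42. SREBF1, the gene of SREBP1, went from 422, 461 and 475 to 959, 950 and 848 CPM (1.02 ± 0.07 SE). FASN, fatty acid synthase, went from 802, 887 and 923 to 2106, 1183 and 2033 CPM (1.03 ± 0.17 SE), and SCD, which makes monounsaturated fatty acids, changed by 1.16 ± 0.11 SE. FASN was thus much lower in replicate 2 than in the other glabridin libraries, without overlap with the melanosome group. ELOVL6, a fatty acid elongase gene, changed by -0.41 ± 0.09 SE. On unscaled totals 4 genes of this list fell.

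Genes of lipid storage, breakdown and export were called in both directions. Of 14 genes of lipid droplets and lipolysis, 6 rose and 4 fell. PLIN2, a droplet coat gene, changed by 0.75 ± 0.13 SE, LIPE, a lipase gene, by 1.23 ± 0.12 SE, and HILPDA, a hypoxia-induced lipase inhibitor, by -0.83 ± 0.14 SE. Of 20 genes of fatty acid oxidation and PPAR targets, 5 rose (25.0%) and 2 fell (10.0%). Of 11 genes of sterol efflux and LXR targets, 3 rose (27.3%) and 2 fell (18.2%). Both lists had a median of 0.02. Over all genes 23.7% rose and 20.2% fell, so the counts of rises in both lists lay near that share. PDK4, a brake on glucose oxidation that was at 0 CPM in untreated cells, read 136, 115 and 107 CPM with melanosomes and 332, 493 and 379 CPM with glabridin (1.75 ± 0.15 SE). ANGPTL4, an inhibitor of lipoprotein lipase, changed by -0.94 ± 0.08 SE. ABCA1, the cholesterol exporter, had 14, 10 and 8 counts in melanosome libraries and 0, 0 and 2 in glabridin libraries, too few for a fold to be given. Of 22 genes of epidermal ceramides and barrier lipids, 7 rose and none fell, and 3 rose without glabridin replicate 1 or with library totals alone. Without glabridin replicate 3, 1 of them fell. On unscaled totals 2 oxidation genes rose and 6 fell, and 1 efflux gene rose and 4 fell. Without glabridin replicate 1, 3 oxidation genes rose, and without glabridin replicate 2, 5 fell.

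**Figure D2:**
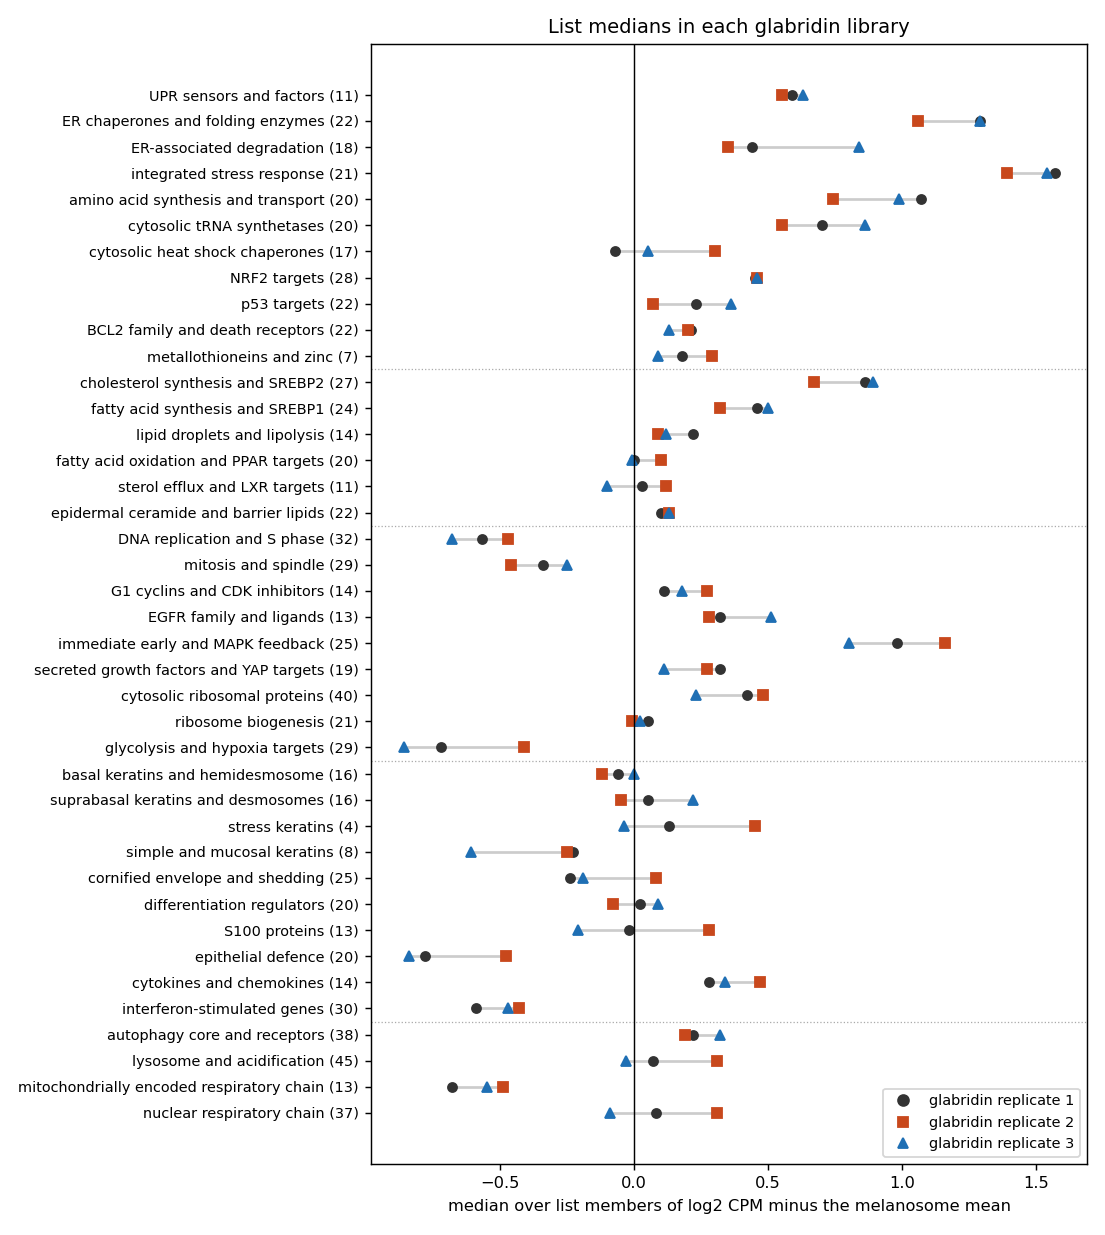
Median over the tested members of each list of log2 CPM in each glabridin library minus the mean of the melanosome libraries. Symbols are the 3 glabridin libraries, grey bars span them, numbers in brackets are tested members, and dotted lines part the stress, lipid, growth, epidermal and organelle lists. ER chaperones lie at 1.29, 1.06 and 1.29 in replicates 1, 2 and 3, whereas lysosome genes lie at 0.07, 0.31 and -0.03.

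Among growth genes, several that encode ligands of the EGF receptor rose. HBEGF, a membrane-shed ligand, was at 22.1, 21.4 and 20.9 CPM without and at 110, 107 and 102 CPM with glabridin (log2 change 2.31 ± 0.07 SE). AREG, amphiregulin, was at 18.5, 19.1 and 20.2 against 70.4, 57.6 and 77.2 CPM (1.83 ± 0.11 SE). EREG, epiregulin, was much less abundant and rose as well, from 45, 22 and 29 to 167, 112 and 275 counts (2.66 ± 0.32 SE). In all 3 ligands the glabridin libraries were above the melanosome libraries. The receptor gene EGFR read 313, 300 and 313 CPM without and 310, 256 and 360 CPM with glabridin, with overlap. Of 13 genes of the family, 6 rose and none fell. With RLE scaling and without glabridin replicate 2, 1 fell.

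Immediate early genes, the first transcriptional response to growth factors and stress, had 19 of 25 members higher and 2 lower, with a median of 1.07. JUN, an AP-1 subunit, was at 16.9, 18.3 and 20.1 CPM without and 65.6, 130 and 62.4 CPM with glabridin (2.22 ± 0.24 SE). DUSP1, a phosphatase that switches off MAP kinases, was at 10.1, 10.7 and 10.6 against 41.9, 101 and 38.1 CPM (2.52 ± 0.31 SE). Both were higher in all glabridin libraries, and highest in replicate 2. ZFP36, which speeds the decay of cytokine mRNAs, went from 46.5, 48.7 and 51.7 to 177, 290 and 153 CPM and was likewise highest in replicate 2. FOS changed by 0.56 ± 0.12 SE and EGR1 by 0.43 ± 0.07 SE, while DUSP6, the ERK phosphatase gene, changed by -0.48 ± 0.08 SE. The 2 members that fell were DUSP6 and EGR2, and without glabridin replicate 3, melanosome replicate 1 or melanosome replicate 2, 1 fell.

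Among secreted growth factors and YAP targets, 9 of 19 rose and 5 fell. VEGFA, the vascular growth factor gene, went from 64.5, 68.7 and 69.5 to 250, 197 and 278 CPM (1.84 ± 0.11 SE). CCN1, a matrix protein gene, went from 19.7, 19.3 and 20.6 to 43.7, 79.3 and 38.6 CPM (1.44 ± 0.22 SE). Neither showed overlap, and CCN1 was highest in replicate 2. IGFBP3, which binds insulin-like growth factors, fell from 1003, 975 and 987 to 415, 476 and 372 CPM (-1.23 ± 0.08 SE).

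Genes of cell division went the other way. Of 32 genes of DNA replication and S phase, 24 fell and 1 rose, with a median of -0.54, and of 29 mitosis and spindle genes 18 fell and none rose, with a median of -0.35. MKI67, the Ki-67 proliferation marker, was at 98.3, 101 and 99.9 CPM without and 49.3, 41.0 and 59.6 CPM with glabridin (log2 change -1.0 ± 0.11 SE), beside a mean of 37.6 CPM in untreated cells. RRM2, a ribonucleotide reductase subunit, went from 59.9, 60.1 and 64.9 to 30.5, 37.6 and 26.6 CPM (-0.97 ± 0.11 SE). In both genes all glabridin libraries were below all melanosome libraries. The summed level of the mitosis list was 2020 to 2081 CPM without glabridin, 1515 to 1723 CPM with it and 616 to 645 CPM in untreated cells. For the S phase list the sums were 1594 to 1683, 1127 to 1315 and 940 to 971 CPM. Both sums thus stayed above those of untreated cells. CCNF, a cyclin of ubiquitin ligase complexes, changed by -1.41 ± 0.10 SE, and UHRF1, a maintenance methylation gene, by -1.41 ± 0.13 SE. CDC6, which licenses replication origins, was the S phase gene that rose (0.85 ± 0.15 SE). The mitotic drivers moved little, with CCNB1 at -0.29 ± 0.06 SE and FOXM1 at -0.23 ± 0.06 SE. Of 14 G1 cyclins and CDK inhibitors, 6 rose and 2 fell. CCND1, cyclin D1, went from 480, 480 and 484 to 245, 312 and 239 CPM (-0.86 ± 0.09 SE), below every melanosome library in all 3 replicates. The inhibitor genes CDKN1A (1.63 ± 0.06 SE) and CDKN1B (0.90 ± 0.08 SE) were higher.

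Ribosomal proteins and glycolysis parted. In the cytosolic ribosome, 39 of 40 listed protein genes rose by small amounts, with none lower and a median of 0.39, and pseudogenes can share their reads. Medians were 0.42, 0.48 and 0.23 in glabridin replicates 1, 2 and 3. Without glabridin replicate 1, 19 rose, and with library totals alone 1 fell. Of 21 ribosome biogenesis genes, which build the ribosome in the nucleolus, 6 were higher (28.6%) and 4 lower (19.0%). These counts lay near the shares over all genes, 23.7% and 20.2%. With library totals alone 2 were higher and 9 lower. Of 29 genes of glycolysis and hypoxia targets, 22 fell and 2 rose, with a median of -0.66. EGLN3, an oxygen-sensing hydroxylase gene, was at 57.3, 57.0 and 57.2 CPM without and 8.55, 6.83 and 7.97 CPM with glabridin (-2.87 ± 0.08 SE). LDHA, lactate dehydrogenase, was at 2090, 2067 and 2030 against 739, 997 and 707 CPM (-1.34 ± 0.11 SE). The groups were far apart in both, with LDHA least reduced in replicate 2. The glucose transporter SLC2A1 (0.50 ± 0.07 SE) and the lactate exporter SLC16A3 (0.44, the fitted log2 change) were the members that rose. SLC16A3 lost its call without glabridin replicate 1 (0.26).

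Single epidermal genes changed in both directions. The counts of rises in the basal, suprabasal, cornified envelope and regulator lists lay near the share over all genes. In the basal layer, 4 of 16 genes rose (25.0%) and 3 fell (18.8%), beside 23.7% and 20.2% over all genes. KRT15, a basal keratin gene, was at 3123, 3329 and 3502 CPM without and 1321, 1606 and 1152 CPM with glabridin (log2 change -1.29 ± 0.10 SE), and KRT5, the main basal type II keratin, was at 3355, 3609 and 3674 against 2209, 2621 and 1917 CPM (-0.66 ± 0.10 SE). All glabridin libraries were below all melanosome libraries for both. KRT14, the partner of KRT5, was at 2961, 3219 and 3214 against 2045, 3188 and 1731 CPM (-0.43 ± 0.17 SE, edgeR adjusted p = 0.0663), where replicate 2 lay among the melanosome libraries. Without glabridin replicate 2 KRT14 was lower (-0.73, edgeR adjusted p = 4.68e-06). The integrin gene ITGA3 (0.64 ± 0.10 SE) was higher. Without each glabridin replicate in turn, and with RLE scaling, 5 basal genes fell, and with library totals alone 10 fell.

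Other keratins moved further. KRT13, a keratin of mucosal epithelium, was at 5475, 6007 and 6081 CPM without and 1695, 1588 and 1526 CPM with glabridin (-1.87 ± 0.07 SE), beside a mean of 17541 CPM in untreated cells. KRT4, its mucosal partner, was at 544, 577 and 590 against 120, 143 and 94.4 CPM (-2.26 ± 0.12 SE). Both were thus lower than in either other group. KRT10, the keratin of the first suprabasal layers, was at 31.9, 31.7 and 27.6 against 88.7, 91.8 and 89.0 CPM (1.56 ± 0.08 SE), and KRT16, a keratin of stressed and wounded epidermis, at 10.3, 10.7 and 11.7 against 37.9, 32.1 and 35.3 CPM (1.68 ± 0.11 SE). For these 2 the glabridin libraries were all higher, and KRT16 may share reads with related type I keratins. KRT1, the partner of KRT10, was near the limit of detection, at 19, 40 and 44 counts against 2, 2 and 4 counts. Of 16 suprabasal keratin and desmosome genes, 3 rose and 4 fell, again near the shares over all genes, and of 4 stress keratins 2 rose and none fell. Of 8 simple and mucosal keratins, 2 rose and 3 fell, but none rose with RLE scaling, without glabridin replicate 1 or without any single melanosome or control replicate. Without glabridin replicate 2, 6 suprabasal genes rose and 1 stress keratin fell. Suprabasal genes that fell numbered 1 or 2 with a melanosome replicate or control replicate 1 left out.

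**Figure D3:**
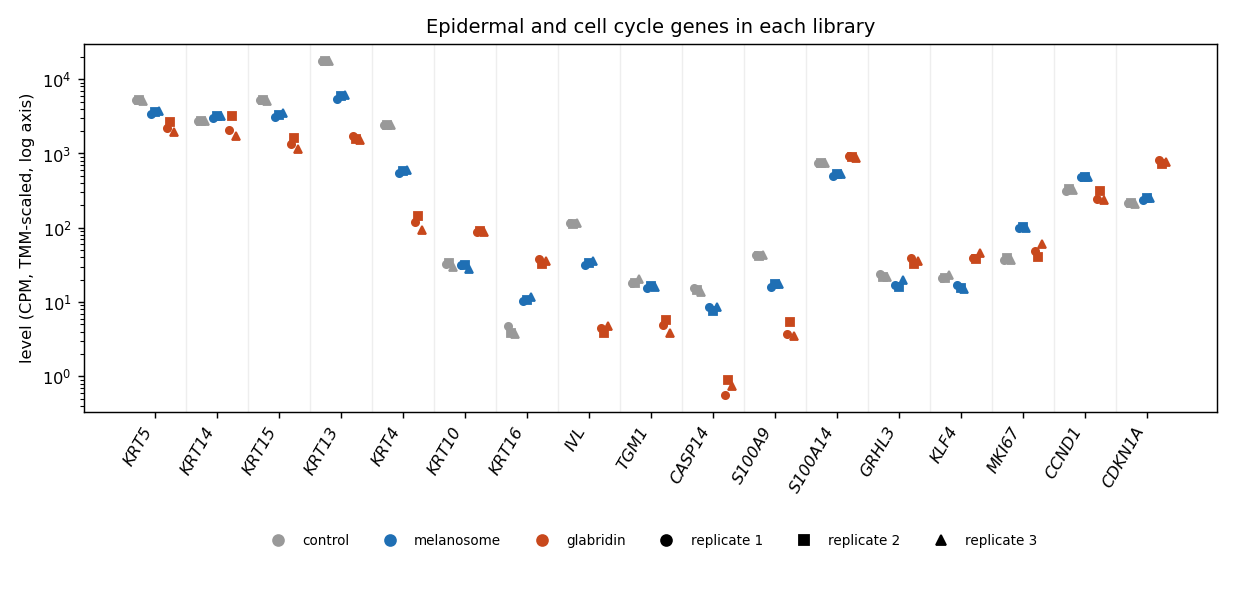
Level of 17 epidermal and cell cycle genes in each library, in CPM on a log axis. Points are single libraries, coloured by group and shaped by replicate number. IVL falls from 31.6 to 36.0 CPM in melanosome libraries to between 3.79 and 4.75 CPM with glabridin, and KRT10 is at 88.7 to 91.8 CPM with glabridin. In KRT14 glabridin replicate 2 overlaps the melanosome libraries.

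In the cornified envelope list, 6 of 25 tested genes rose (24.0%) and 7 fell (28.0%), with a median of -0.15, so that its count of rises matched the share over all genes. IVL, which encodes the envelope scaffold involucrin, was at 31.6, 33.8 and 36.0 CPM without and 4.44, 3.79 and 4.75 CPM with glabridin (-2.96 ± 0.09 SE), beside a mean of 114 CPM in untreated cells. TGM1, the transglutaminase that crosslinks the envelope, was at 15.4, 16.5 and 15.9 against 4.87, 5.70 and 3.85 CPM (-1.73 ± 0.13 SE). In both genes every glabridin library was lower than every other library of the series. CASP14, the caspase of cornification, had 449, 319 and 433 counts without and 25, 36 and 34 counts with glabridin (-3.50 ± 0.16 SE). CSTA, the protease inhibitor cystatin A, was the largest rise among those at a mean log2 CPM of at least 1 (1.03 ± 0.10 SE). On unscaled totals 3 rose and 14 fell, and without glabridin replicate 1, 3 rose.

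Of 20 regulators of differentiation, 6 rose (30.0%) and 4 fell (20.0%), also near those shares. KLF4, a barrier transcription factor, was at 17.1, 15.4 and 15.2 CPM without and 39.2, 38.1 and 45.4 CPM with glabridin (1.36 ± 0.10 SE). GRHL3, which promotes barrier formation, was at 16.9, 16.1 and 19.6 against 39.4, 32.3 and 36.1 CPM (1.04 ± 0.10 SE). OVOL1, a factor of epithelial identity, changed by 1.01 ± 0.16 SE, and HES1, a Notch target gene, by 1.53 ± 0.08 SE. The groups did not overlap in these 4 genes. MAF, a differentiation factor that is also present in other lineages, changed by -1.39 ± 0.13 SE. On unscaled totals 7 regulators fell.

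Among 13 S100 genes, which encode calcium-binding proteins, 4 rose and 5 fell. S100A9, a subunit of the antimicrobial calprotectin, was at 15.7, 17.7 and 17.4 CPM without and 3.75, 5.33 and 3.53 CPM with glabridin (-2.01 ± 0.14 SE). S100A7, psoriasin, had 200, 187 and 185 counts against 18, 17 and 26 counts (-3.08 ± 0.17 SE), and its paralogs could share reads. S100A14 rose from 490, 522 and 531 to 915, 883 and 856 CPM (0.78 ± 0.05 SE). Genes of epithelial defence mostly fell, 14 of 20, with 2 higher and a median of -0.72. The list was chosen with earlier results of these data known, so this count describes its members and is no test. Their summed level was 533, 564 and 573 CPM without and 618, 475 and 570 CPM with glabridin, with overlap. OLFM4, a secreted glycoprotein of mucosal defence, had 501, 356 and 447 counts against 20, 16 and 24 counts (-4.28 ± 0.13 SE). LCN2, an iron-scavenging lipocalin, went the other way (1.06 ± 0.13 SE).

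Of 14 tested cytokine and chemokine genes, 6 rose and 3 fell. IL1A was at 6.39, 6.08 and 5.74 CPM without and 28.4, 19.7 and 35.8 CPM with glabridin (2.20 ± 0.19 SE). IL1B was at 60.4, 58.8 and 60.7 against 181, 181 and 174 CPM (1.58 ± 0.06 SE). These genes of epidermal interleukin-1 were higher in every glabridin library. LIF, a cytokine of the IL-6 family, changed by 1.68 ± 0.11 SE, and the chemokine gene CXCL1, near 1 CPM, by -2.17 ± 0.25 SE. With any single melanosome replicate left out, 1 of these genes fell. Of 30 interferon-stimulated genes, 18 fell and none rose, with a median of -0.52. IFI27 was at 86.4, 103 and 90.6 CPM without and 33.5, 38.5 and 30.9 CPM with glabridin (-1.44 ± 0.10 SE), beside a mean of 4.34 CPM in untreated cells, so that its glabridin level lay between the other groups.

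The series was designed around the breakdown of melanosomes, and the organelle genes were read with that question. Of 38 autophagy genes, 22 rose and 5 fell, with a median of 0.24. SQSTM1, the receptor p62, was at 329, 335 and 351 CPM without and 826, 648 and 775 CPM with glabridin (1.15 ± 0.08 SE). MAP1LC3B, the gene of LC3B in the autophagosome membrane, was at 127, 122 and 121 against 246, 215 and 268 CPM (0.98 ± 0.08 SE). Both were higher in all 3 glabridin libraries. ULK1, the initiating kinase, changed by 0.87 ± 0.13 SE, ATG101, a subunit of its complex, by 1.13 ± 0.07 SE, and PIK3C3, the lipid kinase of autophagosome formation, by -0.65 ± 0.08 SE. TFEB, the master regulator of lysosomal genes, was at 22.2, 24.4 and 24.0 against 24.2, 23.0 and 21.4 CPM, with overlap, whereas its relative TFE3 changed by 0.72 ± 0.07 SE. With library totals alone 14 autophagy genes rose and 10 fell, and without glabridin replicate 2, 8 fell.

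Lysosome and acidification genes numbered 45, of which 16 rose and 3 fell, with a median of 0.15. LAMP1, of the lysosomal membrane, changed by 0.36 ± 0.07 SE, NEU1, a lysosomal sialidase, by 0.93 ± 0.07 SE, and CTSS, a cathepsin gene, by -1.02 ± 0.14 SE. List medians were 0.07, 0.31 and -0.03 in glabridin replicates 1, 2 and 3, so their sign differed between libraries. With library totals alone 8 rose and 7 fell, without glabridin replicate 1, 10 rose, and without glabridin replicate 2, 6 fell. Mitochondrially encoded genes fell, 12 of 13, with a median of -0.48. MT-ND1, of complex I, was at 334, 401 and 396 CPM without and 168, 132 and 177 CPM with glabridin (-1.25 ± 0.11 SE), with no overlap. Their share of counts was 2.51% to 2.65% in the melanosome libraries and 1.53%, 1.87% and 1.59% in the glabridin libraries. Of 37 nuclear genes of the respiratory chain, 7 rose and 1 fell. The rises numbered 1 without glabridin replicate 1, 2 without glabridin replicate 2 and 14 without glabridin replicate 3, and 8 genes fell without glabridin replicate 2. They numbered 1 with RLE scaling, 1 or 2 with a single melanosome replicate left out, and 3 or 4 with a single control replicate left out.

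Several of the largest falls outside these groups can be named. APOLD1, an apolipoprotein L domain gene, was at 89.6, 84.0 and 83.0 CPM without and 7.47, 7.59 and 9.37 CPM with glabridin (-3.39 ± 0.11 SE), beside a mean of 5.83 CPM in untreated cells. MAT2A, which makes the methyl donor S-adenosylmethionine, was at 64.4, 63.8 and 67.6 against 15.2, 12.0 and 18.2 CPM (-2.11 ± 0.12 SE), beside 111 CPM in untreated cells. The glabridin level of APOLD1 was thus near that of untreated cells, and that of MAT2A below both other groups. ATP6V1B1, a subunit of the proton pump, changed by -2.02 ± 0.07 SE. The alkaline phosphatase genes ALPP (-2.14 ± 0.08 SE) and ALPG (-2.67 ± 0.11 SE) are near-identical, so their separate values are uncertain. Among the largest rises, KDELR3, a receptor that returns chaperones to the ER, changed by 2.65 ± 0.10 SE and STC2, a secreted glycoprotein induced by ER stress, by 2.60 ± 0.17 SE.

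Markers of pigment cells were present in both groups and moved with the replicates. Of 22 tested melanocyte markers, 8 fell and 2 rose, with a median of -0.29. Their summed level was 3683, 3769 and 3804 CPM in melanosome libraries, 2706, 4076 and 2314 CPM in glabridin libraries and 318 to 327 CPM in untreated cells. Glabridin replicate 2 was thus above and the other glabridin libraries below the melanosome group. PMEL, the gene of the melanosome fibril, was at 2037, 2122 and 2167 CPM without and 1383, 2361 and 1063 CPM with glabridin, with overlap, and was lower without glabridin replicate 2 (-0.79, edgeR adjusted p = 2.42e-05). DCT, of melanin synthesis, was at 41.6, 37.7 and 33.4 against 5.03, 6.53 and 5.13 CPM (-2.76 ± 0.15 SE), and MITF, the lineage factor of pigment cells, at 111, 98.0 and 91.6 against 49.7, 55.2 and 54.4 CPM (-0.92 ± 0.08 SE). Both were lower in all glabridin libraries. Without glabridin replicate 2, 14 markers fell, and with library totals alone 13. Without glabridin replicate 1, 1 marker rose. The part of these transcripts in the changes above was not tested. The keratinocyte label held, with the summed level of 12 markers at 12241 to 13189 CPM without and 10118 to 12766 CPM with glabridin. Summed levels of fibroblast markers were 21.2 to 27.3 CPM and of endothelial markers 3.84 to 12.2 CPM over the 6 libraries, and the leukocyte marker PTPRC had 0 counts in all 6. Leukocyte markers summed to 70.9 to 78.7 CPM without and 107 to 121 CPM with glabridin, mostly CD68, a lysosomal glycoprotein gene (0.66 ± 0.07 SE) that other cells also use.

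The called genes were compared library by library. Of the 6111 called genes, 6111 lay on the called side of the melanosome mean in replicate 1, 6088 in replicate 2 (99.6%) and 6111 in replicate 3. In 5878 of the called genes (96.2%) the 3 glabridin libraries did not overlap the 3 melanosome libraries, a separation seen in 50.2% of all tested genes. Over the genes called at 2-fold or more, the median size of the log2 change was 1.38, 1.31 and 1.42 in replicates 1, 2 and 3. Only 3 of those 1116 genes went the other way in a library, each in replicate 2. Because the call rests on the same libraries, these counts describe the agreement and do not test it.

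The spread was nonetheless wider than in the other groups. The level floor was a mean log2 CPM of at least 3 over the 6 compared libraries, which 9359 genes reached. Among them the median range among the 3 libraries was 0.30 with glabridin, 0.14 in the melanosome group and 0.09 in untreated cells. The biological coefficient of variation, the square root of edgeR's common dispersion as a percentage, was 17.5%, 6.52% and 3.57% in that order. A range of at least 2-fold was found in 370 genes (3.95%) with glabridin, in 2 genes with melanosomes alone and in 73 genes (0.78%) in untreated cells. Untreated cells did not enter the floor, so genes near 0 CPM there were kept. CIB2, for example, had a log2 range of 2.93 at 0 to 0.148 CPM in untreated cells. The wide genes ran between replicates 2 and 3. Of the 370, 313 were lowest in replicate 2 and highest in replicate 3, 55 were the reverse, and 2 had another order. The SD over genes of the log2 difference was 0.444 between replicates 2 and 3, 0.267 between 1 and 2 and 0.247 between 1 and 3. Replicate 1 was the middle library in 66.9% of genes. In a principal component analysis of the 6 libraries, 62.7% of the variance fell on a first axis between the groups. A second axis, with 19.5%, placed glabridin replicates 2 and 3 at opposite ends, at -37.5 and 32.2, with replicate 1 at 2.39. Of the 370 wide genes, 72 were called (19.5%). Their wide range also enters the spread that the test uses, so this share follows in part from how they were picked.

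The split between replicates 2 and 3 went with base composition and length. The median log2 difference of replicate 3 minus replicate 2 was 0.50 in the lowest of 5 equal bins of genes by GC content (30.2% to 41.0%) and -0.21 in the highest bin. By length of the longest transcript it was -0.20 in the shortest bin and 0.27 in the longest. The melanosome replicates 1 and 3 differed in the same way by GC content, by a median of 0.20 in the lowest bin and -0.14 in the highest. The fitted glabridin change varied less, from a median of 0.06 in the lowest bin to 0.02 in the highest by GC content, and from 0.12 to -0.05 from the shortest to the longest bin. The calls differed more by length. In the shortest bin 30.8% of genes were called higher and 14% lower, and in the longest bin 16.6% and 24.2%. Over bins of GC content 19.6% to 26.1% were called higher and 13.9% to 23.8% lower. The shares over all genes that stand beside the lists average over these bins. The 10 genes with the largest range among glabridin libraries were all lowest in replicate 2 and highest in replicate 3, and had GC contents of 32.5% to 40.7% beside a median of 48.8% over tested genes. ZBTB41, a zinc finger gene, was at 24.7, 11.2 and 45.6 CPM with glabridin and 14.6, 11 and 8.79 CPM without it. EDEM3, a mannosidase of ER-associated degradation, was at 16.5, 9.95 and 30.4 CPM with glabridin and 15.1, 14.6 and 12.6 CPM without it. In both genes replicates 1 and 3 lay above all melanosome libraries. Replicate 2 lay among the melanosome libraries for ZBTB41 and below all of them for EDEM3. The part of GC content and length in the spread was not tested.

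**Figure D4:**
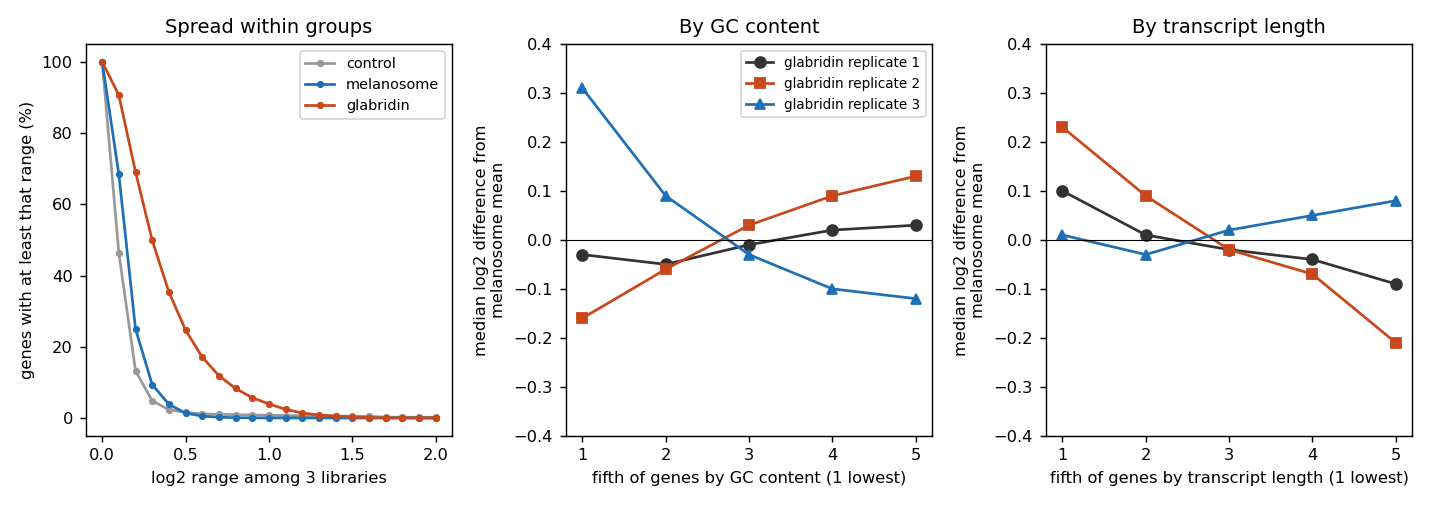
Left, the share of 9359 genes (y axis, %) whose 3 libraries span at least a given log2 range (x axis) in each group. These genes were chosen by their level in the melanosome and glabridin libraries, so some are near 0 CPM in untreated cells. Middle and right, the median log2 difference of each glabridin library from the melanosome mean in 5 bins of genes by GC content and by transcript length. In the lowest bin by GC content replicate 3 is at 0.31 and replicate 2 at -0.16, and the order is the reverse in the highest bin, at -0.12 and 0.13.

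No single order of the libraries held over the gene lists. The list medians of replicates 1, 2 and 3 were 1.57, 1.39 and 1.54 for the integrated stress response, 0.86, 0.67 and 0.89 for cholesterol synthesis, and -0.57, -0.47 and -0.68 for S phase. Replicate 2 had the smallest median size in each of these. It had the largest for immediate early genes, at 0.98, 1.16 and 0.80, for mitosis and spindle genes, at -0.34, -0.46 and -0.25, and for ribosomal proteins. Signs differed between libraries in lists with medians near 0, such as heat shock chaperones (-0.07, 0.30 and 0.05), S100 proteins (-0.02, 0.28 and -0.21) and the cornified envelope (-0.24, 0.08 and -0.19). In these 3 lists replicate 2 was the highest library, but it was the lowest for suprabasal genes (0.05, -0.05 and 0.22) and for regulators of differentiation (0.02, -0.08 and 0.09).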

How the data were processed

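Counts per gene for 9 mRNA-seq libraries of HaCaT cells were used as deposited by the authors, not normalized. The authors' TPM and FPKM values, per the file headers, stand beside them and entered no test. The genome build was hg38, per the submitters' processing notes. No aligner, counting tool, strand setting or annotation is named in the labels, so reads of overlapping or antisense genes may be shared. Of 20263 identifiers, 20148 matched a symbol. Library totals were 39653425 to 46690787 counts. The libraries of each group differed by more than sampling noise (chi-square per gene at least 3.13), so none was merged. Per the labels' protocols, libraries were made from poly(A) RNA with a strand mark.

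Genes passing filterByExpr by group entered the quasi-likelihood test of edgeR 4.0.16 (R 4.3.3; TMM factors, all 9 libraries in a single fit, no replicate block), with Benjamini-Hochberg adjustment over 13912 genes. SE was derived from the F statistic, and log2 CPM used a prior count of 1. The script was tested on simulated data. GC content and transcript length came from GENCODE release 29, promoters from RefSeq (GRCh38.p14). Genes open to naming were the top 10 in each direction among calls whose libraries did not overlap (mean log2 CPM 3 or more), key members of each list with its top rise and fall among calls (mean log2 CPM 1 or more), and the 10 genes of widest range among glabridin libraries (mean log2 CPM 3 or more). Other list members were picked as examples with their values in view. The rule took more genes than are named. Some of them are not reported here, though they stay in the counts. The members and the lists were chosen with earlier results of these data known. Alternatives were RLE or no scaling, DESeq2 1.42.0, 2 other low-count filters, the 6 libraries alone, a replicate block, voom with library weights (limma 3.58.1) and leaving out each replicate.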

Additional observations from a re-analysis of the deposited data

How the results depend on the processing

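In all 17 alternatives run, no called gene was called in the other direction. With RLE factors 5998 genes were called, with DESeq2 6409, and with the 6 compared libraries alone 4970. On unscaled library totals 1872 genes were called higher and 4573 lower. With voom and library weights 9384 were called, 4668 of them lower. That fit gave glabridin replicate 1 a weight of 4.32 and replicates 2 and 3 weights of 0.164 and 0.199, so its calls lean on replicate 1. Leaving out each replicate in turn gave 4838 to 7332 called genes, with 2037 to 3956 higher and 2196 to 3376 lower. The lowest count of higher genes, 2037, came without glabridin replicate 1, and the highest total, 7332, without glabridin replicate 2. The cause was not tested.

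Among named genes that were not called, small changes turned sign. HMOX1 was at -0.02 with RLE factors and DESeq2, -0.15 without scaling factors and -0.05 with voom and library weights. HSPA1A was at -0.08 without scaling factors and -0.18 with voom and library weights, EGFR at 0.02 and TFEB at 0.00 with voom. Leaving out a replicate moved HSPA1A between -0.31 and 0.32, HMOX1 between -0.12 and 0.12, EGFR between -0.13 and 0.12, TFEB between -0.17 and 0.01 and EDEM3 between -0.09 and 0.74.

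No pairing of the samples by replicate number was seen, though correlations with 3 libraries per group cannot exclude it. Deviations from the group means in melanosome and glabridin libraries of the same number were correlated by -0.07, 0.05 and -0.21 for replicates 1, 2 and 3. No glabridin library correlated best with the melanosome library of its own number. With a replicate block 5523 genes were called, and KRT14 passed (-0.47, edgeR adjusted p = 0.0382).

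Library totals differed by little. Genes with few counts, such as KRT1 and ABCA1, rest on single-digit counts with glabridin. Even numbers made up 69.9% to 72.2% of counts from 1 to 49 in each library, and whether both reads of a pair were counted is not stated.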
